A study of Mus musculus with 6 samples.

Results

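The genes described here are 6 neighbours on mouse chromosome 11: Il4, Il5 and Il13, which encode the classical type 2 cytokines, Rad50, which lies among them, and Csf2 and Il3, a pair of haematopoietic cytokine genes further along the same chromosome. They were chosen by name, through the Entrez number of each row, and all 6 had a row among the 25206 rows of the table. Expression was measured on 6 single-colour arrays, in lines of group 2 innate lymphoid cells (ILC2s) from C57BL/6J mice. Both groups grew in medium with 10 ng/ml of both IL-33 and IL-2, carried a lentiviral CRISPR construct that also encodes GFP, and were sorted as GFP-positive cells on day 6 after transduction. The 3 control arrays hold cells with a non-target guide, and the 3 knockout arrays hold cells with a guide against Cbfb, the gene of core-binding factor beta. Whether the 3 arrays of a group came from separate lines, clones or transductions is not given in the sources used here, so the spread behind each p-value is that between these arrays and could be technical alone.

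ILC2s carry no antigen receptor and answer alarm cytokines such as IL-33 by secreting IL-5 and IL-13. IL-5 supports eosinophils, IL-13 drives mucus production and smooth muscle responses, and IL-4 directs antibody class switching and helper T cell differentiation. The locus control region that coordinates Il4 and Il13 in helper T cells lies within the Rad50 gene, whose own product is a DNA repair protein of every cell. IL-3 and GM-CSF, the product of Csf2, signal through receptors that share the common beta chain with the IL-5 receptor. Core-binding factor beta is the partner of RUNX proteins on DNA, and RUNX motifs are known from several regulatory elements of these cytokine genes.

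Values are on a log2 scale, normalised by the authors, so a difference of 1 is a doubling of signal. Array medians lay between 3.57 and 3.63, and no pair of arrays was identical. The targeted gene, Cbfb, read 8.65 ± 0.11 in control and 7.83 ± 0.12 in knockout arrays (SD, n = 3 arrays per group; limma adjusted p = 0.00205), so its transcript was lower in the group labelled knockout. An edit of the gene need not remove its transcript, and neither the edit nor the protein was measured. Of 12 measured ILC2 markers 10 read above 3.60, the median of all group means, in at least 1 group, and the summed signal of the 12 on the linear scale was 15440 to 15890 in control and 13690 to 14080 in knockout arrays. Of these markers 4 fell, namely Icos by 0.78, Il7r by 0.56, Il2rb by 0.45 and Id2 by 0.35 on the log2 scale, and Rora rose (limma adjusted p 0.000562 to 0.0352). The Id2 call was kept without control replicate 1 and lost without any 1 of the other 5 arrays (limma adjusted p 0.0453 to 0.126). The other measured ILC2 markers, Gata3, Klrg1, Ptprc and Arg1 among them, did not pass. Over all rows 4.24% fell and 5.51% rose by the same test, and in a fit to rows above the median level alone 27.9% passed. The 4 lower markers went the same way as Il5, Csf2 and Il3, and Rora the opposite way. The part of the ILC2 markers in those differences was not tested. The surface marker Thy1 and the IL-25 receptor gene Il17rb read under 3.60 in both groups. The value 3.60 is no detection limit, since the table holds no detection calls.

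Il5, Csf2 and Il3 fell in the knockout, while Il13, Il4 and Rad50 did not pass the test. The falls were modest: the knockout kept 79.4% of the control signal for Il5 (95% interval 70.0% to 90.0%), 67.4% for Csf2 (55.7% to 81.5%) and 73.4% for Il3 (62.1% to 86.7%). Il3 read 2.37 in control and 1.92 in knockout, under 3.60, so its percentage need not measure transcript. Over all 25206 rows 9.75% passed the same test (limma, Benjamini-Hochberg adjusted p under 0.05) with 4.24% lower and 5.51% higher in the knockout. Of these 6 genes 3 passed, all of them lower. In a separate fit to the rows above the median level alone, with its own prior and adjustment, 27.9% passed. Of the 5 members in that fit 3 passed, namely Il5, Csf2 and Il13. The median difference over the 6 genes was -0.27 on the log2 scale, beside -0.0067 over all rows. In 4 of the 6 genes every knockout array read below every control array, a pattern that 13.4% of all rows showed (27.5% did not overlap in either direction). None of the 3 falls was held by every fit that left out 1 array, as given for each gene below.

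**Figure D1:**
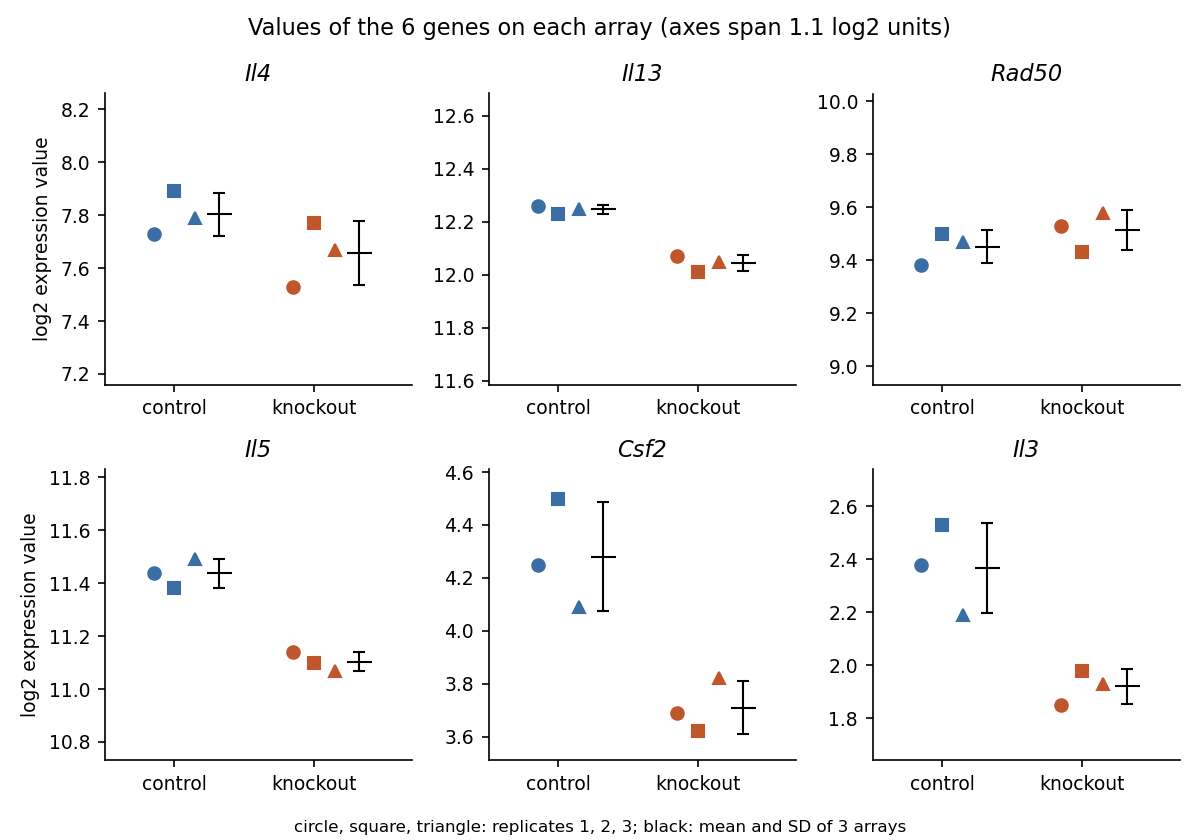
Log2 expression values of the 6 genes on each array (y axis, every panel spanning the same 1.1 log2 units) in control and knockout (x axis), with the mean and SD of 3 arrays in black. Knockout points lie below all control points for Il13, Il5, Csf2 and Il3, and the groups overlap for Il4 and Rad50.

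Of the type 2 cytokine genes in this cluster, Il5 passed the test. It read 11.44, 11.38 and 11.49 in control replicates 1, 2 and 3, and 11.14, 11.10 and 11.07 in knockout replicates 1, 2 and 3. The 3 knockout arrays all lay below the lowest control array, and the arrays of each group lay close together. The mean fell from 11.44 ± 0.055 to 11.10 ± 0.035 (SD, n = 3), a difference of -0.33 with a standard error of 0.079 (95% interval -0.51 to -0.15; limma adjusted p = 0.0349). Without any 1 of the 6 arrays the difference stayed between -0.36 and -0.31, and the adjusted p rose to between 0.0701 and 0.116. In a bulk culture, fewer cells making a transcript and less of it per cell cannot be told apart.

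Il13, the other main product of activated ILC2s, read 12.26, 12.23 and 12.25 in control replicates 1 to 3, against 12.07, 12.01 and 12.05 in knockout replicates 1 to 3. The groups did not overlap, yet the difference of -0.20 (95% interval -0.38 to -0.03) did not pass, with a limma adjusted p of 0.149. The 6 arrays of Il13 vary less than most rows, and limma draws such a small spread toward the typical one. With the prior following the expression level the same difference had an adjusted p of 0.00143 (limma, trended and robust prior), and with no moderation 0.0254. It did not pass without any 1 of the 6 arrays (limma adjusted p 0.212 to 0.313) and with array weights (adjusted p = 0.13). The highest value on any array was 12.51 and the highest per array lay between 12.43 and 12.51. Il13, and less closely Il5, thus read near the top of the range. A saturated signal would make a difference look smaller, and saturation was not tested.

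Il4 read 7.73, 7.89 and 7.79 in control replicates 1 to 3, against 7.53, 7.77 and 7.67 in knockout replicates 1 to 3. The knockout replicate 2 array lay above the lowest control array, so the groups overlapped. The difference of -0.15 had a 95% interval from -0.36 to 0.07 (limma adjusted p = 0.428), which includes no change and a fall as large as that of Il5.

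Rad50, whose product joins DNA ends as part of the MRN repair complex, read 9.38, 9.50 and 9.47 in control replicates 1 to 3, against 9.53, 9.43 and 9.58 in knockout replicates 1 to 3. The groups overlapped, and its difference of 0.06 had a 95% interval from -0.13 to 0.26 (limma adjusted p = 0.738). It was the 1 gene of the 6 whose mean was higher in the knockout.

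Csf2, the gene of the myeloid growth factor GM-CSF, was lower in all 3 knockout arrays. It read 4.25, 4.50 and 4.09 in control replicates 1 to 3, against 3.69, 3.62 and 3.82 in knockout replicates 1 to 3. No knockout array reached the lowest control array, though the control arrays were spread over a wider range than those of Il5. The mean fell from 4.28 ± 0.21 to 3.71 ± 0.10, a difference of -0.57 with a standard error of 0.12 (95% interval -0.84 to -0.30; limma adjusted p = 0.0214). The call was lost without control replicate 1, control replicate 2, knockout replicate 1 or knockout replicate 2 (limma adjusted p 0.0234 to 0.0771 over the 6 fits that left out 1 array), and also without moderation (adjusted p = 0.115).

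Il3, which encodes a growth factor of early blood progenitors, mast cells and basophils, read 2.38, 2.53 and 2.19 in control replicates 1 to 3, against 1.85, 1.98 and 1.93 in knockout replicates 1 to 3. Again every knockout array lay below every control array. The difference was -0.45 with a standard error of 0.10 (95% interval -0.69 to -0.21; limma adjusted p = 0.0338). Both Il3 means, 2.37 ± 0.17 and 1.92 ± 0.066, lie well under 3.60, and the Csf2 means lie near it. Whether the Il3 row carries signal above background cannot be read from this table, and differences near background are compressed. The Il3 call was kept without control replicate 3 and lost in the other 5 fits that left out 1 array (limma adjusted p 0.0292 to 0.113 over the 6), and it was lost without moderation (adjusted p = 0.117).

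Csf2 and Il3 shared the order of their control arrays, with replicate 2 highest and replicate 3 lowest in both genes. In the knockout the order differed, with replicate 3 highest for Csf2 and replicate 2 highest for Il3. The replicate 3 control array, the lowest of the controls for both genes, was the highest of the controls for Il5.

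Whether neighbouring genes changed by unequal amounts was asked with the difference of their log2 values on each array, which cancels anything that moves a whole array. Relative to Rad50, the knockout mean was lower by a change of -0.40 for Il5, -0.27 for Il13 and -0.21 for Il4. For Il5 and Il13 the 3 knockout arrays lay below the 3 control arrays (exact two-sided permutation p = 0.1 for each, the smallest that 3 against 3 arrays allow). For Il4 the exact permutation p was 0.2. Csf2 relative to Il3 changed by -0.12 (exact permutation p = 0.2). After adjustment over these 4 comparisons the adjusted p of each was 0.2, so this design, which cannot go below 0.1 for any of them, showed no unequal change past 0.05.

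Sequences upstream of the cytokine genes are shown because the targeted protein acts on DNA through RUNX partners. Which of these genes passed depended on the setting, and a difference between the changes of Il5 and Il13 was not tested. Each window runs from 250 bases before the annotated start to 50 bases after it, from RefSeq on build GRCm38.p6, written 5′ to 3′ on the strand of the gene. Of the 6 genes 5 had such a window, and Rad50 had none. Both windows of Il4 were searched but are not printed. Capitals mark a RUNX motif (TGTGGT, or those letters with C at the third base) or a GATA motif (GATA after A or T and before A or G), searched on both strands.
Il13 promoter, chr11:53634653-53634952, strand -: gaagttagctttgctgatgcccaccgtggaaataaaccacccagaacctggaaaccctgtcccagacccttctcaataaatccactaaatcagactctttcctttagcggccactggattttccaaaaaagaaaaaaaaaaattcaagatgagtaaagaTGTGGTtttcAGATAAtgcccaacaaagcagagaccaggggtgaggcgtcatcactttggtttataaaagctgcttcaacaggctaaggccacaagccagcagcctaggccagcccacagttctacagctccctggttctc
Il5 promoter, chr11:53720544-53720843, strand +: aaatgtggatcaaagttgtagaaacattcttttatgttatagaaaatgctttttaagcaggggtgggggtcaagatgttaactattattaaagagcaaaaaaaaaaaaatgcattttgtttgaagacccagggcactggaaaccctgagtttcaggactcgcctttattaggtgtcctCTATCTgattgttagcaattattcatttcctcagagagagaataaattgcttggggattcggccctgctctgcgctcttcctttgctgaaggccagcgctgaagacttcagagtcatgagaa
Csf2 window at the annotated start, chr11:54249850-54250149, strand -: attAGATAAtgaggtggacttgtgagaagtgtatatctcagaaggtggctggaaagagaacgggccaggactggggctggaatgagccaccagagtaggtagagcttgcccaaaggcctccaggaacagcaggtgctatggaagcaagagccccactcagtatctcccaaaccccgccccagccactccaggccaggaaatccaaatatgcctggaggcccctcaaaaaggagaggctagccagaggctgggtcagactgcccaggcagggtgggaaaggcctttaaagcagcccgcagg
Il3 promoter, chr11:54267230-54267529, strand -: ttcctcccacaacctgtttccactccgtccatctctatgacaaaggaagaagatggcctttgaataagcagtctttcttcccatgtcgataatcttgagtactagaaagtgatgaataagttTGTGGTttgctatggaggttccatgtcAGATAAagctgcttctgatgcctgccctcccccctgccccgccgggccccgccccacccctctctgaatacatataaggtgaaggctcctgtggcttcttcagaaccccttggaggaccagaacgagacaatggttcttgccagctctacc

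RUNX letters stood in the windows of Il13, as TGTGGT from base -91 to -86 relative to the start, and of Il3, as TGTGGT from base -128 to -123. The windows of Il5 and Csf2, and both annotated start windows of Il4, held none. Of all 32851 promoter windows of this length 22.4% hold a RUNX motif and 2.86% hold 2 or more. A GATA motif, the letters bound by the ILC2 factor GATA3, stood once in every window printed, and once in each Il4 window, where 29.8% of all windows hold one. In Il13 the GATA letters AGATAA lay from base -81 to -76, close after the RUNX letters, and in Il3 from -101 to -96. In Il5 they lay on the opposite strand from base -72 to -67 and in Csf2 from -247 to -242. A motif of the NFAT family, GGAAAA on either strand, was found 4 times in the upstream Il4 window and once in Il13, where 23.4% of all windows hold it. The AP-1 motif TGANTCA, searched with C or G at N on either strand, was in none of the 6 windows and is in 5.2% of all. Such matches describe letters, not bound sites. The annotated start need not be the one used in these cells, and for Csf2 in particular the window may lie upstream of the proximal promoter in use, so its lack of RUNX letters says nothing about that promoter.

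Across the surrounding chromosome segment, calls were about as frequent as over all rows. Of 22 other genes measured from this neighbourhood 1 rose, 1 fell and 20 did not pass, with a median difference of -0.06. Over all rows 9.75% passed. Of the 13 in the fit to rows above the median level 1 rose and 2 fell, while 27.9% of those rows passed. In 7 of the 22 every knockout array read below every control array, a pattern of 13.4% of all rows. In 1 of the 22 every knockout array read above. Aff4, which encodes a scaffold of the super elongation complex, fell from 9.91 ± 0.026 to 9.48 ± 0.010 (limma adjusted p = 0.0105). Septin8, a cytoskeletal GTPase gene that lies 2 genes before Il4 among those measured, rose from 7.53 ± 0.035 to 7.95 ± 0.085 (limma adjusted p = 0.0179). That rise passed without knockout replicate 1 and missed the threshold without any 1 of the other 5 arrays (limma adjusted p 0.0294 to 0.0679 over the 6). Named for their position alone, Kif3a, the kinesin gene before Il4, differed by -0.15 (limma adjusted p = 0.307), and Irf1, the interferon regulatory factor gene after Il5, by 0.27 (adjusted p = 0.181). Acsl6, a fatty acid activating enzyme gene that follows Il3, differed by -0.08 (limma adjusted p = 0.68).

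**Figure D2:**
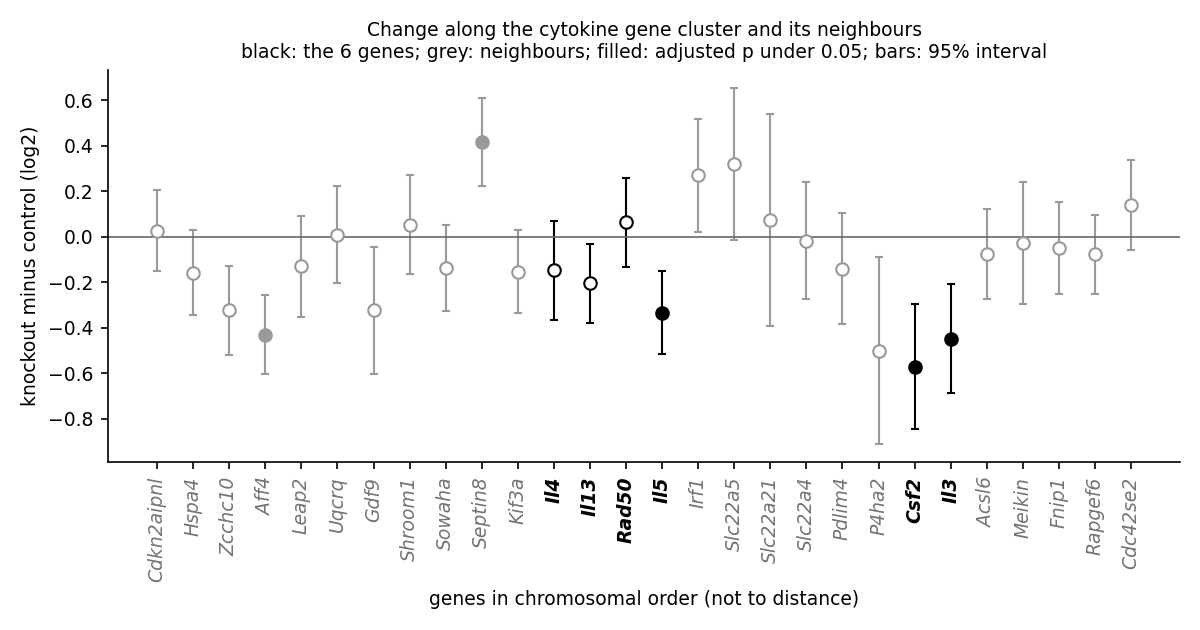
Knockout minus control on the log2 scale (y axis, with 95% interval from limma) for the 6 genes in black and 22 neighbours in grey, placed in chromosomal order on the x axis without regard to distance. Filled points had an adjusted p under 0.05: Aff4 and Septin8 among the neighbours, and Il5, Csf2 and Il3 among the 6 genes.

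Receptor and signalling genes of these cytokines changed in both directions. Of 16 measured receptor, kinase, STAT and adaptor genes 3 rose, 3 fell and 10 did not pass, with a median difference of -0.01. Over all rows 5.51% rose and 4.24% fell. Of the 13 in the fit to rows above the median level 3 rose and 3 fell, while 27.9% of those rows passed. Csf2rb, which encodes the beta chain shared by the receptors for IL-3, IL-5 and GM-CSF, read 9.52, 9.60 and 9.51 in control replicates 1 to 3, against 10.18, 10.31 and 10.17 in knockout replicates 1 to 3. All 3 knockout arrays lay above all control arrays, a rise of 0.68 (1.6-fold, standard error 0.083; limma adjusted p = 0.00231). Csf2rb2, its mouse paralogue that serves IL-3 alone, read 7.22, 7.33 and 7.32 in control and 8.21, 8.13 and 8.26 in knockout arrays, a rise of 0.91 (1.88-fold; limma adjusted p = 0.000608). These paralogues are near-identical over much of their sequence, and the table does not show how far their probes separate them.

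The ligand-specific chains of the same receptors did not pass. Il3ra differed by 0.02, Il5ra by -0.10 and Csf2ra by -0.31 (limma adjusted p = 0.928, 0.563 and 0.125); these 3 were named after their values were seen. Il5ra read 2.54 and 2.44, under 3.60. Il4ra, the chain shared by the receptors for IL-4 and IL-13, fell from 9.84 ± 0.040 to 9.33 ± 0.057 (1.42-fold; limma adjusted p = 0.00656). Stat5a, which carries signals of IL-3, IL-5, GM-CSF and IL-2, fell from 9.02 ± 0.061 to 8.33 ± 0.17 (limma adjusted p = 0.00557). Its paralogue Stat5b rose by 0.36 (limma adjusted p = 0.0267), and the kinase gene Jak2 fell by 0.38 on the log2 scale (limma adjusted p = 0.0383). Stat5b and Jak2, also named after their values were seen, each kept the call without knockout replicate 1 and lost it without any 1 of the other 5 arrays. Stat6, the transducer of IL-4 and IL-13, differed by -0.15 (limma adjusted p = 0.301).

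**Figure D3:**
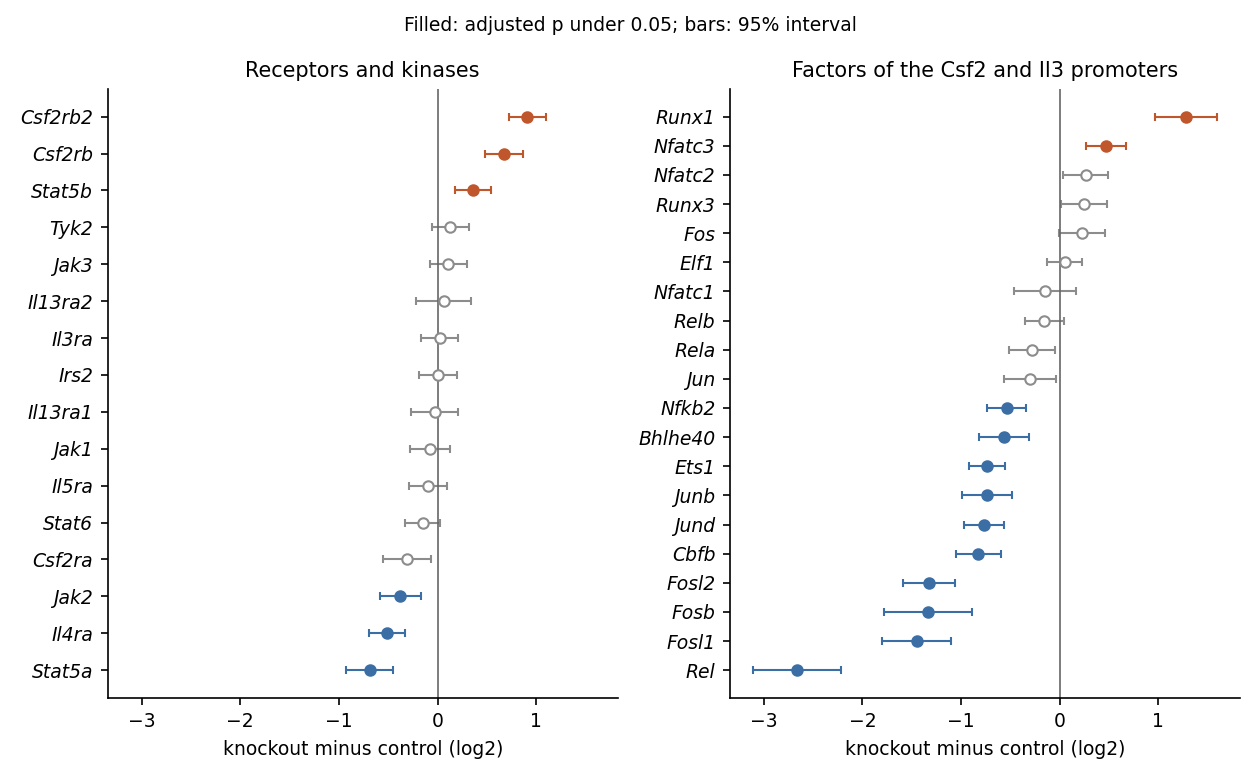
Knockout minus control on the log2 scale (x axis, points with 95% interval from limma) for 16 receptor, kinase, STAT and adaptor genes at left and 20 measured factors listed for the Csf2 and Il3 promoters at right (y axis). Filled points had an adjusted p under 0.05, with Csf2rb2 and Csf2rb at the top of the left panel and Rel, lower by 2.66, at the bottom of the right one.

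Factors known from the Csf2 and Il3 promoters, most of them members of the NF-κB and AP-1 families, were lower more often than higher. Of 20 measured 10 fell, 2 rose and 8 did not pass, with a median difference of -0.42, where 4.24% of all rows fell and 5.51% rose. All 20 entered the fit to rows above the median level, where again 10 fell and 2 rose while 27.9% of those rows passed. The list was chosen with earlier results of these data known. The rises were those of Runx1 and Nfatc3, and Nfatc3, named after its value was seen, lost its call without control replicate 2, control replicate 3, knockout replicate 2 or knockout replicate 3 (limma adjusted p 0.0238 to 0.0575 over the 6 fits). The list includes Cbfb itself, the targeted gene, among the 10. Rel, which encodes the c-Rel subunit of NF-κB, went down 6.32-fold from 9.28 ± 0.34 to 6.62 ± 0.29 (limma adjusted p = 0.000245). Fosl2 and Fosl1, which encode FOS-related AP-1 subunits, fell 2.5-fold and 2.73-fold (limma adjusted p = 0.000512 and 0.00114). Runx1, the gene of a DNA-binding partner of core-binding factor beta, rose 2.42-fold (limma adjusted p = 0.00121).

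Regulators of the type 2 cytokine locus changed in both directions, with 5 higher, 6 lower and 19 not past the test among 30 measured and a median of -0.01, beside 5.51% higher and 4.24% lower over all rows. The 6 lower calls became 3 without control replicate 1 or control replicate 2, and 2 without moderation. Of the 27 in the fit to rows above the median level 5 rose and 7 fell, while 27.9% of those rows passed. Irf4, a transcription factor gene of activated lymphocytes, fell from 9.66 ± 0.035 to 8.32 ± 0.13 and Ets1, a founding ETS factor gene, from 9.26 ± 0.042 to 8.52 ± 0.055 (limma adjusted p = 0.000194 and 0.00129). Maf, whose product activates Il4 in helper T cells, rose from 9.02 ± 0.046 to 9.96 ± 0.021, and the nuclear receptor gene Rora rose by 2.22 (limma adjusted p = 0.000415 and 0.000562). Rora read 3.32 ± 0.35 in control, under 3.60, so the size of its rise is approximate. Gata3, named for its role at this locus after its value was seen, read 10.58 ± 0.095 and 10.68 ± 0.026 (95% interval of the difference -0.09 to 0.29; limma adjusted p = 0.566).

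Cytokine transcripts are short-lived, and factors that control their decay were listed for that reason. Of 14 measured 1 rose, 2 fell and 11 did not pass, with a median of -0.04, beside 5.51% higher and 4.24% lower over all rows. All 14 entered the fit to rows above the median level, where 2 rose and 2 fell while 27.9% of those rows passed. Zfp36l2, which encodes a protein that promotes decay of transcripts with AU-rich elements, rose from 8.82 ± 0.14 to 9.60 ± 0.11 (limma adjusted p = 0.00328). Zc3h12a, the gene of the cytokine mRNA endonuclease Regnase-1, fell from 7.28 ± 0.18 to 6.53 ± 0.070 (limma adjusted p = 0.00447). Its relative Zc3h12c fell by 0.41 on the log2 scale (limma adjusted p = 0.015), a call lost without control replicate 2, knockout replicate 2 or knockout replicate 3 (adjusted p 0.0324 to 0.0593 over the 6).

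Among 14 measured partners of RAD50 in the repair of double strand breaks 1 rose, none fell and 13 did not pass (limma), with a median of -0.09. Over all rows 9.75% passed. All 14 also entered the fit to rows above the median level, where 3 rose and 1 fell while 27.9% of those rows passed. Dna2, a nuclease and helicase gene of end resection, rose from 5.22 ± 0.064 to 5.76 ± 0.14 (limma adjusted p = 0.0123), and missed the threshold without control replicate 2 (adjusted p = 0.0556). Mdc1, a checkpoint mediator gene, differed by 0.51, the helicase gene Blm by -0.26 and the telomere protein gene Terf2 by 0.29 (limma adjusted p = 0.0749, 0.109 and 0.118). Mdc1 passed without control replicate 1 or knockout replicate 1 (adjusted p 0.0441 to 0.218 over the 6 fits). With the trended and robust prior 2 of the 14 fell.

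Some other cytokine genes changed by more than the 6 described here. Of 25 other cytokine and growth factor genes measured 4 rose and 7 fell, with a median of -0.12, where 5.51% of all rows rose and 4.24% fell. Of the 14 in the fit to rows above the median level 4 rose and 7 fell, while 27.9% of those rows passed. The changes with the smallest adjusted p were a rise of 4.61 for Il9, a fall by 1.73 for Il10, a fall by 3.17 for Il6 and a rise of 2.17 for the eosinophil chemokine gene Ccl24 (limma adjusted p = 1.8e-05, 7.54e-05, 9.21e-05 and 0.000113). Il9, a type 2 cytokine gene outside this chromosome segment, thus moved in the opposite direction to Il5, though its control mean of 3.39 lies under 3.60.

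Genes whose 6 values followed those of a member most closely, by the root mean square (RMS) difference after each row was centred on its own mean, came from many functions. For Il5 these were Nup153, a nuclear pore gene, and Pecam1, an adhesion molecule gene, with RMS differences of 0.0222 and 0.0249 on the log2 scale. For Csf2 they were Bcl10 and Tiparp, at 0.0515 and 0.0593. Bcl10 encodes an adaptor of antigen receptor signalling to NF-κB. The closest rows to Il3 were Tpm4 (0.0279) and Med6 (0.0361), and those to Il13 were Eif5a (0.0138) and Rbm25 (0.0153). Il4 lay nearest to Sap30bp and Tmcc1 (0.018 and 0.0205), and Rad50 nearest to Dhx29 and B3gat3 (0.0137 and 0.0149). These are the best of 23185 named rows over only 6 arrays, so close matches of this kind are a description and carry no test.

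T cells, mast cells and basophils also make several of these cytokines, so markers of these and other cells were listed. Of 11 measured T cell markers 8 read under 3.60 in both groups, and their summed linear signal was 176 to 187 in control and 153 to 162 in knockout arrays. The T cell receptor constant gene Trac was the 1 that passed, falling from 5.68 to 5.07 (limma adjusted p = 0.00324). In the list for mast cells and basophils 9 of 12 genes read under 3.60 in both groups, and the sum was 197 to 244 in control and 146 to 155 in knockout arrays. Within that list the protease gene Cpa3 fell by 2.91 on the log2 scale, while the histamine enzyme gene Hdc rose by 1.46 and the transcription factor gene Gata2 by 0.76 (limma adjusted p = 7.06e-05, 0.000367 and 0.0385). The Gata2 call was kept without control replicate 1 and lost without any 1 of the other 5 arrays (limma adjusted p 0.0259 to 0.113). Kit, Fcer1a, Ms4a2 and Mcpt8 were among the 9 under 3.60 in both groups, while Cpa3, Hdc and Gata2 read above it in both. None of 7 eosinophil markers passed (limma), the integrin gene Itgax fell alone among 9 macrophage and dendritic cell markers, and the immunoglobulin gene Ighm rose alone among 6 B cell markers. The share of all rows that passed the same test was 9.75%. The summed signal of the B cell list was 49.6 to 58.5 in control and 88.9 to 101 in knockout arrays. That of the macrophage and dendritic cell list was 157 to 165 and 117 to 148, and that of the eosinophil list 227 to 238 and 213 to 243. Each sum weighs bright genes most, so 1 gene can move it. Ighm read 4.51 in control and 5.98 in knockout, Itgax 5.81 and 4.77, and Cpa3 6.87 and 3.96. The part of these markers in the differences of Il5, Csf2 and Il3 was not tested.

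**Figure D4:**
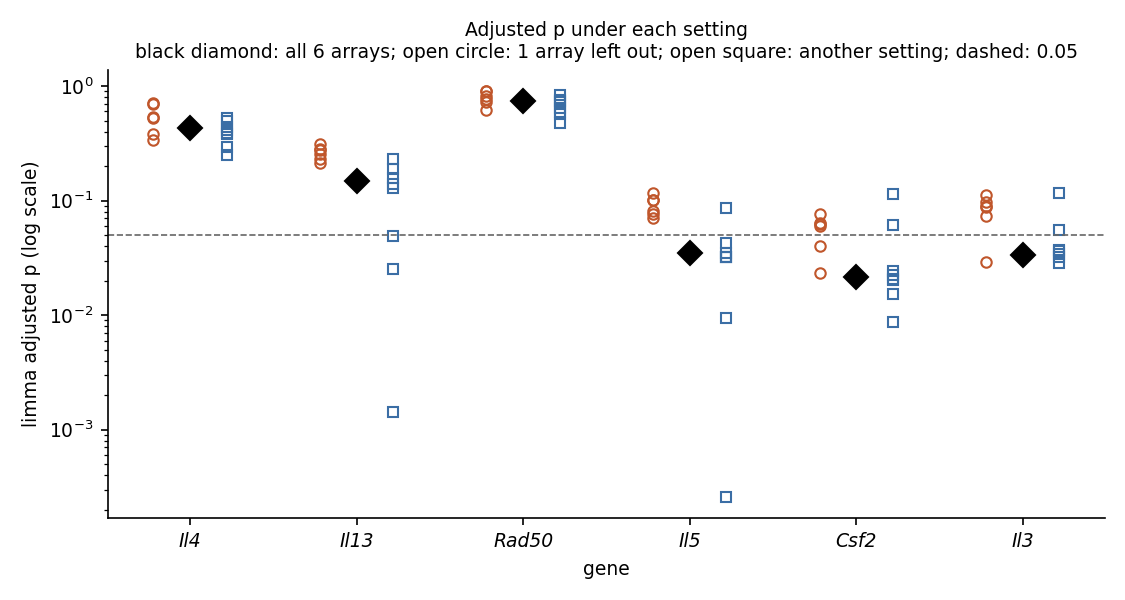
Limma adjusted p (y axis, log scale) of the 6 genes (x axis) with all 6 arrays (black diamond), with 1 array left out (open circles) and under other settings (open squares), with the threshold of 0.05 dashed. Il5, Csf2 and Il3 lie just under the line with all arrays and mostly above it with 1 array left out, and Il4 and Rad50 lie above it throughout.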

How the data were processed

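Biotin-labelled total RNA, extracted with Trizol, was hybridised to arrays, per the labels' protocols. The table deposited by the authors holds log2 values for 25206 rows, 1 per Entrez gene. RMA and limma 3.14.4 are named in the submitters' processing notes with no account of what each did, and the log2 scale was read from the values (0.66 to 12.51). Quantile normalisation, part of RMA, hides changes shared by most genes. Of the rows 23185 have 1 gene symbol, 0 several and 2021 none. Symbols were matched by Entrez number to RefSeq (GRCm38.p6), and that table was used for names and gene order only.

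Values were used as deposited. The test was limma 3.58.1 in R 4.3.3, 1 coefficient per group, over all rows, with Benjamini-Hochberg adjustment and a threshold of 0.05. It was tested on simulated data. Differences between genes within an array were compared by exact permutation. Members and lists were chosen with earlier results of these data known. Named were the 6 members, Cbfb, the 2 closest rows to each member, and up to 4 genes per list with the smallest adjusted p that passed. Where fewer than 2 passed, those with the smallest adjusted p were named. Some exceptions are stated where they occur. Stat6 and several cell type markers, such as Thy1, Il17rb, Kit, Fcer1a, Ms4a2 and Mcpt8, were also named outside this rule. The number of arrays limits the precision.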

Additional observations from a re-analysis of the deposited data

How the results depend on the processing

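The direction of all 6 genes and of the 4 within-array differences was the same under every alternative run. Of the 6 genes 3 passed with all arrays. That count was 0 with the replicate block, 0 at an adjusted p of 0.01, and 0 to 2 in the fits that left out 1 array (0 without control replicate 1, control replicate 2, knockout replicate 1 or knockout replicate 2, and 1 without knockout replicate 3), where fewer samples enter. Over all rows the count past the threshold was then 1307 to 1837 in place of 2457, 1745 with the block and 966 at 0.01, with 5780 rows at an unadjusted p under 0.05.

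With 1 array left out, the difference of Il5 was -0.36 to -0.31, of Csf2 -0.67 to -0.46 and of Il3 -0.54 to -0.37. With the replicate block, which leaves the differences of Il5 (-0.33), Csf2 (-0.57) and Il3 (-0.45) as they were, the limma adjusted p became 0.086, 0.0613 and 0.0557. Whether same-numbered arrays share more than a number is not given in the sources used here. Their deviations from the group means correlated at 0.0249, 0.0067 and 0.0539, beside -0.065 to 0.044 for the other pairs. Not every array correlated best with its own number, so these values do not decide whether arrays were paired. Without moderation Csf2 (-0.57) and Il3 (-0.45) missed the threshold (adjusted p = 0.115 and 0.117). Il13 (-0.20) passed among rows above the median level (adjusted p = 0.049), with the trended and robust prior (0.00143) and without moderation (0.0254). Il3 was not among the rows above the median level and has no value there. Normalising again or centring changed no call of the 6 genes. The cause of these shifts was not tested.

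Falls among the factors of the Csf2 and Il3 promoters numbered 7 to 11 across all alternatives, and rises among the receptor genes 2 to 3. Falls among the locus regulators numbered 2 to 7 (6 with the main settings), and falls among the receptor genes 1 to 3 (3). Smaller counts moved by more than 1.5 times: 0 to 1 rises and 0 to 2 falls among the chromosome 11 neighbours, 0 to 3 rises and 0 to 2 falls among the RAD50 partners, 1 to 2 rises and 1 to 3 falls among the decay factors, and 1 to 3 rises among the promoter factors. The table holds no detection calls, which limits what the low values of Il3 and Csf2 can show.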
